A study of Mus musculus with 18 samples.

Results

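The proteasome genes described here were the 49 genes of the deposited gene table whose symbol starts with Psma, Psmb, Psmc, Psmd, Psme, Psmf or Psmg followed by a digit, out of 23511 genes in all. Symbols marked as pseudogenes, of which 2 matched, were dropped. All 49 passed the filter on low counts. RNA was sequenced in bulk from mouse macrophages sorted from the peritoneal cavity as Tim-4low or Tim-4high, Tim-4 being a phosphatidylserine receptor of resident cavity macrophages. The labels form 6 groups of 3 libraries. The first pair of groups, Tim-4low and Tim-4high, came from mice with no tumor and no treatment. Another pair came from mice bearing MC38-LG tumors in the peritoneum, MC38 being a mouse colon carcinoma line, and given an isotype antibody, and the last pair from such mice given anti-Tim-4. Anti-Tim-4 was given on day 7 after challenge and macrophages were taken on day 10, and mice without a tumor were taken on that same day. The labels give no day for the isotype antibody, no age or strain, and no statement that the libraries of a group came from separate mice, so the p-values reflect how far these libraries differ, which can be technical spread. The isotype groups differ from the no-tumor groups in both tumor and antibody, and these cannot be told apart.

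The proteasome degrades proteins tagged with ubiquitin. Its 20S core is built of alpha rings, which gate the entrance, and beta rings, in which Psmb5, Psmb6 and Psmb7 carry the cutting sites. Interferon-gamma induces the alternative subunits Psmb8, Psmb9 and Psmb10, which replace Psmb5, Psmb6 and Psmb7 in newly built cores to give the immunoproteasome, and induces Psme1 and Psme2, whose products form the PA28 activator. Macrophages use the resulting peptides for presentation on MHC class I. The 19S regulator, made of Psmc ATPases and Psmd subunits, unfolds tagged proteins, and Psmg chaperones help to assemble the core.

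The promoters of 2 inducible genes with the subunits they replace, and of the activator gene Psme1, are printed because the results turn on these genes. They come from RefSeq on build GRCm38.p6, cover 250 bases before to 50 bases after the RefSeq start, and read 5′ to 3′ on the gene's strand. Of the 49 genes, 41 had such an entry. The windows are chr17:34197945-34198244 (plus strand) for Psmb8, chr14:54617946-54618245 (minus) for Psmb5, chr17:34187281-34187580 (minus) for Psmb9, chr11:70525107-70525406 (plus) for Psmb6 and chr14:55578244-55578543 (plus) for Psme1. Capitals mark matches on either strand to 2 motifs, the interferon regulatory factor core (GAAA, any 2 bases, GAAA) and the antioxidant response element core TGACNNNGC.
Psmb8: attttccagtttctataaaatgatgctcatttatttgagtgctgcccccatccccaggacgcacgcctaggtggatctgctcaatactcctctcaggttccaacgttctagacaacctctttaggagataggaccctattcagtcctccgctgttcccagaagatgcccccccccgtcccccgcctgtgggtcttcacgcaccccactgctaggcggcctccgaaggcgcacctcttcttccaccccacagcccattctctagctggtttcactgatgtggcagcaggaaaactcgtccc
Psmb5: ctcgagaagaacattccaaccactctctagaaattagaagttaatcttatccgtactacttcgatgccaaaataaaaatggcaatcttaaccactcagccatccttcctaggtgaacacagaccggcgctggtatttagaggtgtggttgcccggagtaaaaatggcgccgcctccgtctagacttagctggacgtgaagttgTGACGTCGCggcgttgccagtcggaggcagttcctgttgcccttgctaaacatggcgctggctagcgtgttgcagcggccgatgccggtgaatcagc
Psmb9: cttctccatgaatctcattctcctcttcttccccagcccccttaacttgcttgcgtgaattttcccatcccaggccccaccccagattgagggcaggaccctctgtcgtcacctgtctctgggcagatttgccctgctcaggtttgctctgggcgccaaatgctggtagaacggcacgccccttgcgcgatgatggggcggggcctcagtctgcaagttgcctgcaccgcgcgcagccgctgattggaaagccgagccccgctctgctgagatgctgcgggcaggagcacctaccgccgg
Psmb6: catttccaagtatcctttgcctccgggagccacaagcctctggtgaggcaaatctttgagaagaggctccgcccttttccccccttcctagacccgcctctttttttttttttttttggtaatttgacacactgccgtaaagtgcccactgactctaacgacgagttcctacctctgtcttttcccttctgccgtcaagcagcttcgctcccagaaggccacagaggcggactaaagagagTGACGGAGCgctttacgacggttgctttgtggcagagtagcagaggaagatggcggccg
Psme1: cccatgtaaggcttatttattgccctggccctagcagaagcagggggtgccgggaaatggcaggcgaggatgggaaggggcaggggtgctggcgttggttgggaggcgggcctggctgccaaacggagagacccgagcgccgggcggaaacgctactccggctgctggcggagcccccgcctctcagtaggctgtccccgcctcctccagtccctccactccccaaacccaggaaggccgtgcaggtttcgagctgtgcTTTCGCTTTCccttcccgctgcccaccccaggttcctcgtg
The capitals in Psme1 are an interferon regulatory factor core that begins 9 bases after the start. In Psmb5 and Psmb6 they mark antioxidant response element cores 47 and 9 bases before the start, and Psmb8 and Psmb9 held neither motif in this window. The windows of Psmb8, Psmb9 and Psme1 lie wholly inside the gene coordinates given below. For these genes the bases before the start of those coordinates were therefore not searched. Over 32851 promoters of the same length the interferon regulatory factor core was found in 3.44%, against 5 of the 41 proteasome genes (Psmb3, Psmd4, Psmd9, Psme1 and Psmg4). The antioxidant core was found in 12.4%, against 6 of 41 (Psmb5, Psmb6, Psmc6, Psmd12, Psmd9 and Psme4). The shares over all promoters count promoter entries, while those of the proteasome genes count genes, of which 3 had 2 entries. These matches are descriptions of the letters and no binding was measured.

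Each library held 24530070 to 34110392 estimated counts in genes. All 7 macrophage markers were detected in every library. They summed to 26390 to 45050 CPM without a tumor and to 16980 to 22490 CPM with one, so these groups did not overlap. CPM are read counts scaled to library size with trimmed mean of M-values factors. Single markers went both ways. From no tumor to isotype, mean Lyz2 went from 31719 to 7411 CPM in Tim-4high and from 22249 to 9355 CPM in Tim-4low cells. Mean Csf1r was also lower with isotype, while Adgre1, Cd68 and Itgam were higher in both populations. Mertk and Cd14 differed in direction between the populations. Monocyte markers summed to 1235 to 1918 CPM in Tim-4low libraries. In Tim-4high libraries they summed to 99.2 to 177 CPM without a tumor, 452 to 651 CPM with isotype and 630.1 to 725 CPM with anti-Tim-4. Dendritic cell markers summed to 73.5 to 155 CPM in no-tumor Tim-4low and 21.6 to 40.04 CPM in no-tumor Tim-4high libraries, to 46.1 and 59.0 CPM in the isotype libraries 3 and to at most 15.5 CPM in the other tumor libraries. T and NK cell markers summed to 1.96 to 10.2 CPM without a tumor, to 113 and 108 CPM in the isotype libraries 3 and to at most 23.5 CPM in the other tumor libraries. Without a tumor, neutrophil, epithelial or tumor, and fibroblast or mesothelial markers summed to at most 6.87, 7.71 and 0.564 CPM. With a tumor these sums were 21.1 to 211, 7.67 to 24.8 and 3.31 to 64.2 CPM. Cdh1 made up most of the epithelial or tumor sum with a tumor, at group means of 9.85 to 18.3 CPM. In group means Krt19 was also higher with a tumor, while Epcam and Krt8 were lower and Krt18 was mixed. B cell markers reached 728 and 225 CPM in the no-tumor libraries 1 and at most 93.8 CPM elsewhere. Both no-tumor libraries 2 stood apart in the inducible genes, as given with their values below, and were highest in some other genes too. Results on inducible genes are given with and without these libraries where they move. In bulk RNA, a different number of cells of a type and a different amount of RNA per cell cannot be told apart.

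With tumor and isotype antibody, nearly every proteasome gene was higher than without a tumor in both populations. In Tim-4high cells 45 of 49 rose and none fell, where 27.3% of the 16609 genes tested rose and 24.1% fell, 51.5% in all. In Tim-4low cells 44 of 49 rose and none fell, where 25.2% of genes tested rose and 24.6% fell, 49.8% in all. The median log2 fold change over the 49 genes was 0.62 in Tim-4high and 0.59 in Tim-4low cells, beside -0.01 and -0.02 over all genes tested. With library totals alone, which shift the median of all genes by -0.15 and -0.12, 38 rose and 1 fell in Tim-4high and 42 rose and 1 fell in Tim-4low cells. The 5 inducible genes Psmb8, Psmb9, Psmb10, Psme1 and Psme2 all rose, with medians of 1.21 and 1.30, and the 44 other members had medians of 0.58 and 0.56. All tests across genes are edgeR's quasi-likelihood test with Benjamini-Hochberg adjustment over the genes tested, and a gene rose or fell where the adjusted p was under 0.05.

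**Figure D1:**
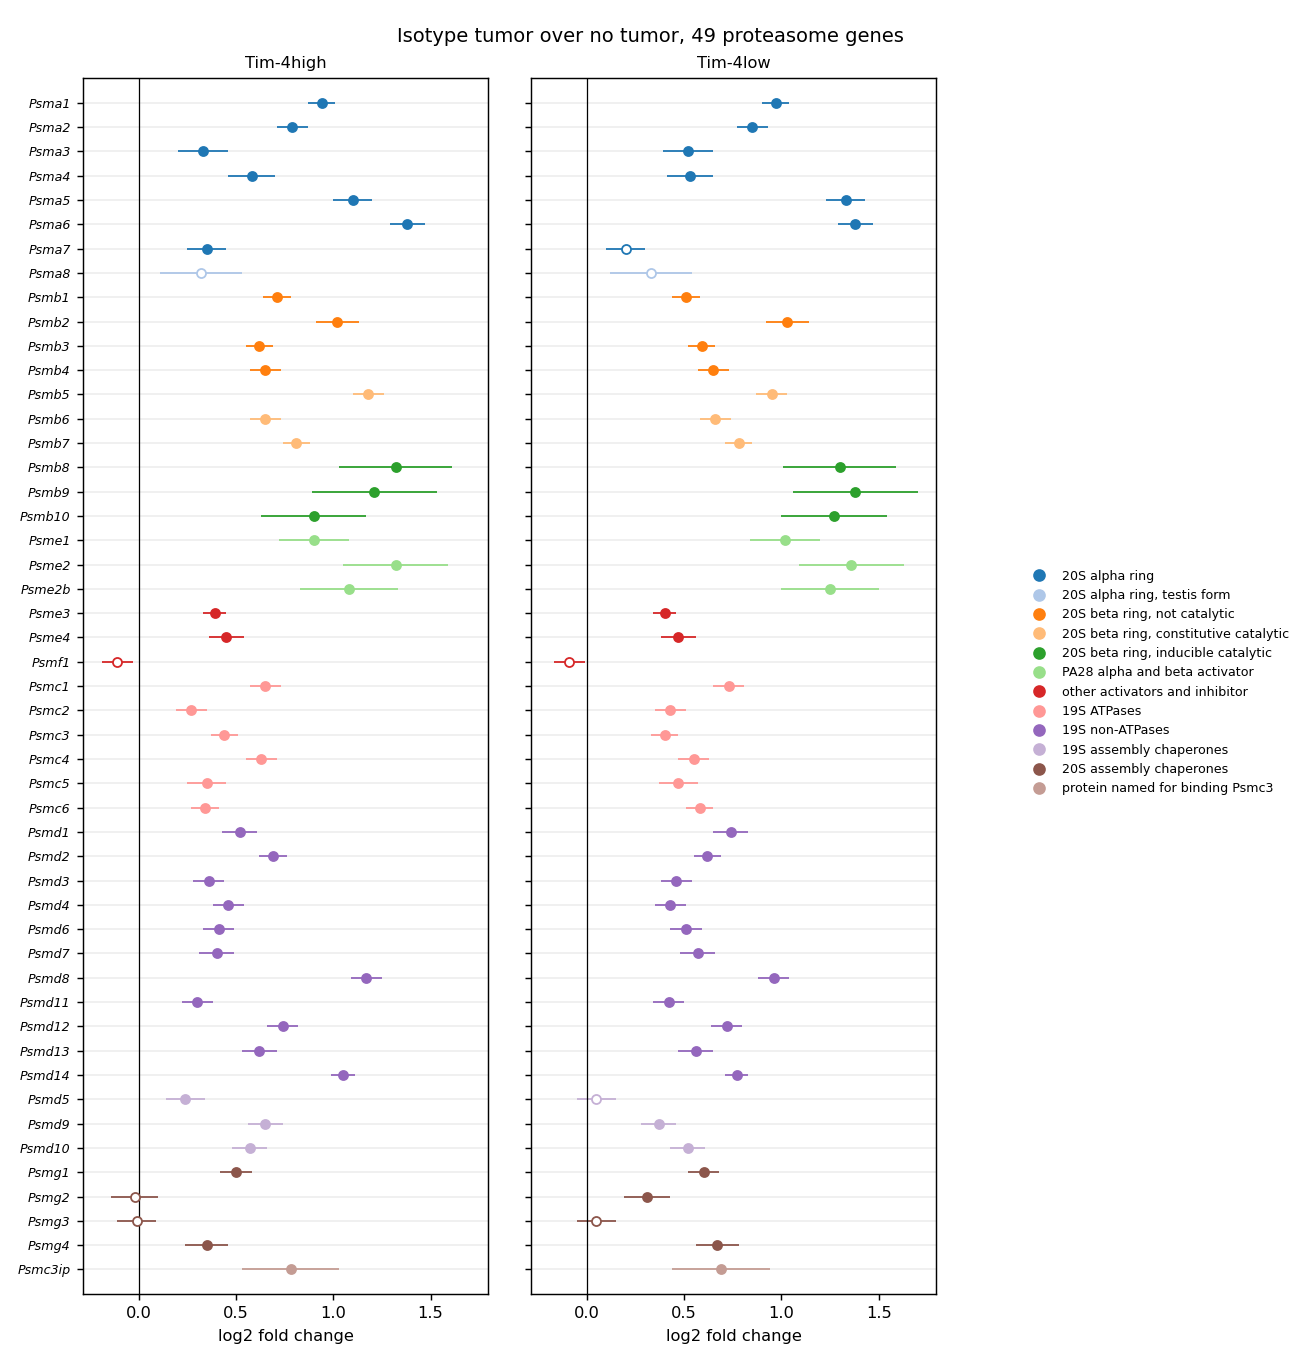
Log2 fold change of isotype tumor over no tumor for the 49 proteasome genes, grouped by role, in Tim-4high (left) and Tim-4low (right) macrophages. Points are edgeR estimates, bars are standard errors, filled points passed an adjusted p of 0.05. The points lie right of 0 for all but a few genes, and the inducible genes (dark green) have the widest bars.

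Psmb8 (ENSMUSG00000024338, chromosome 17, 34197721 to 34201454, mm10, plus strand), the inducible chymotrypsin-like subunit also known as LMP7, stood at 171, 286 and 203 CPM in libraries 1 to 3 of no-tumor Tim-4low cells. The no-tumor Tim-4high libraries held 99.5, 279 and 108 CPM. With tumor and isotype it reached 516, 557 and 547 CPM in Tim-4low and 399.6, 390.1 and 422 CPM in Tim-4high cells. Every tumor library thus lay above every no-tumor library, and library 2 was the highest of the no-tumor libraries in both populations. Psmb8 rose 2.49-fold in Tim-4high (log2 fold change 1.32 ± 0.29, SE, adjusted p = 0.00128) and 2.46-fold in Tim-4low cells (1.30 ± 0.29, adjusted p = 0.00152). Without both no-tumor libraries 2 the log2 fold changes were 1.96 and 1.53.

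Psmb9 (ENSMUSG00000096727, chromosome 17, 34181987 to 34187764, minus strand), the inducible caspase-like-site subunit LMP2, stood at 48.9, 90.7 and 51.6 CPM in no-tumor Tim-4low and at 40.2, 115 and 40.6 CPM in no-tumor Tim-4high libraries. Tumor isotype libraries held 160.5, 166 and 172 CPM in Tim-4low and 151, 141 and 159.8 CPM in Tim-4high cells. The groups did not overlap, and library 2 was again the highest without a tumor. The rise was 2.31-fold in Tim-4high (log2 fold change 1.21 ± 0.32, adjusted p = 0.0047) and 2.61-fold in Tim-4low cells (1.38 ± 0.32, adjusted p = 0.00196). Without both no-tumor libraries 2 the log2 values were 1.90 and 1.73. Fitted on the compared groups alone, the Tim-4high value missed the threshold (1.18, adjusted p = 0.0504). Psmb9 overlaps Tap1 on the other strand, and whether counting used the strand is not given in the sources used here.

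Psmb10 (ENSMUSG00000031897, chromosome 8, 105935735 to 105938444, minus strand), the inducible trypsin-like subunit MECL-1, held 83.0, 144 and 104 CPM in no-tumor Tim-4low and 79.1, 206 and 89.0 CPM in no-tumor Tim-4high libraries. It stood at 250.4, 274 and 272 CPM with tumor isotype in Tim-4low and at 237, 216 and 246 CPM in Tim-4high cells. The groups did not overlap, though the no-tumor Tim-4high library 2, at 206 CPM, was close to the lowest tumor library. Psmb10 rose in Tim-4low cells (log2 fold change 1.27 ± 0.27, adjusted p = 0.00117). The call in Tim-4high cells (0.90 ± 0.27, adjusted p = 0.0107) was lost without the no-tumor Tim-4high library 1 (0.65, adjusted p = 0.0556), without library 3 of that group (0.71, adjusted p = 0.0554) and in a fit of the compared groups alone (0.88, adjusted p = 0.0795). Without both no-tumor libraries 2 the values were 1.47 in Tim-4high and 1.51 in Tim-4low cells.

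The PA28 genes showed the same library pattern. Psme1 (ENSMUSG00000022216, chromosome 14, 55578123 to 55581529, plus strand) stood at 84.5, 121 and 93.2 CPM in no-tumor Tim-4low and at 64.9, 123 and 72.6 CPM in no-tumor Tim-4high libraries. With tumor isotype it was at 185, 203 and 218 CPM and at 163, 151 and 169 CPM in the same order. Psme1 encodes PA28 alpha, and its groups did not overlap in either population. It rose in Tim-4high (log2 fold change 0.90 ± 0.18, adjusted p = 0.000747) and in Tim-4low cells (1.02 ± 0.18, adjusted p = 0.000272), and by 1.23 and 1.19 without both no-tumor libraries 2.

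Psme2 (ENSMUSG00000079197, chromosome 14, 55587441 to 55591113, minus strand), which encodes PA28 beta, held 13.9, 25.9 and 17.6 CPM in no-tumor Tim-4low and 10.2, 26.5 and 11.96 CPM in no-tumor Tim-4high libraries. With tumor isotype it held 42.3, 52.5 and 52.1 CPM and 41.5, 39.7 and 40.2 CPM. It rose by log2 1.32 ± 0.27 in Tim-4high (adjusted p = 0.000878) and by 1.36 ± 0.27 in Tim-4low cells (adjusted p = 0.000678), and by 1.87 and 1.64 without both no-tumor libraries 2. Its level is uncertain, because the intronless near copy Psme2b (ENSMUSG00000078153, chromosome 11, 48945354 to 48946190, minus strand) may share reads with it. Psme2b held more counts in every library, 74.6 to 182 CPM without a tumor and 234 to 286 CPM with tumor isotype. It overlaps the protein-coding genes Gm12185 and 9930111J21Rik1 on the same strand, so its counts may include their reads. How reads were split between these genes is not given in the sources used here. With the counts of Psme2 and Psme2b summed the log2 fold changes were 1.11 ± 0.25 in Tim-4high (adjusted p = 0.00181) and 1.27 ± 0.25 in Tim-4low cells (adjusted p = 0.000718).

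**Figure D2:**
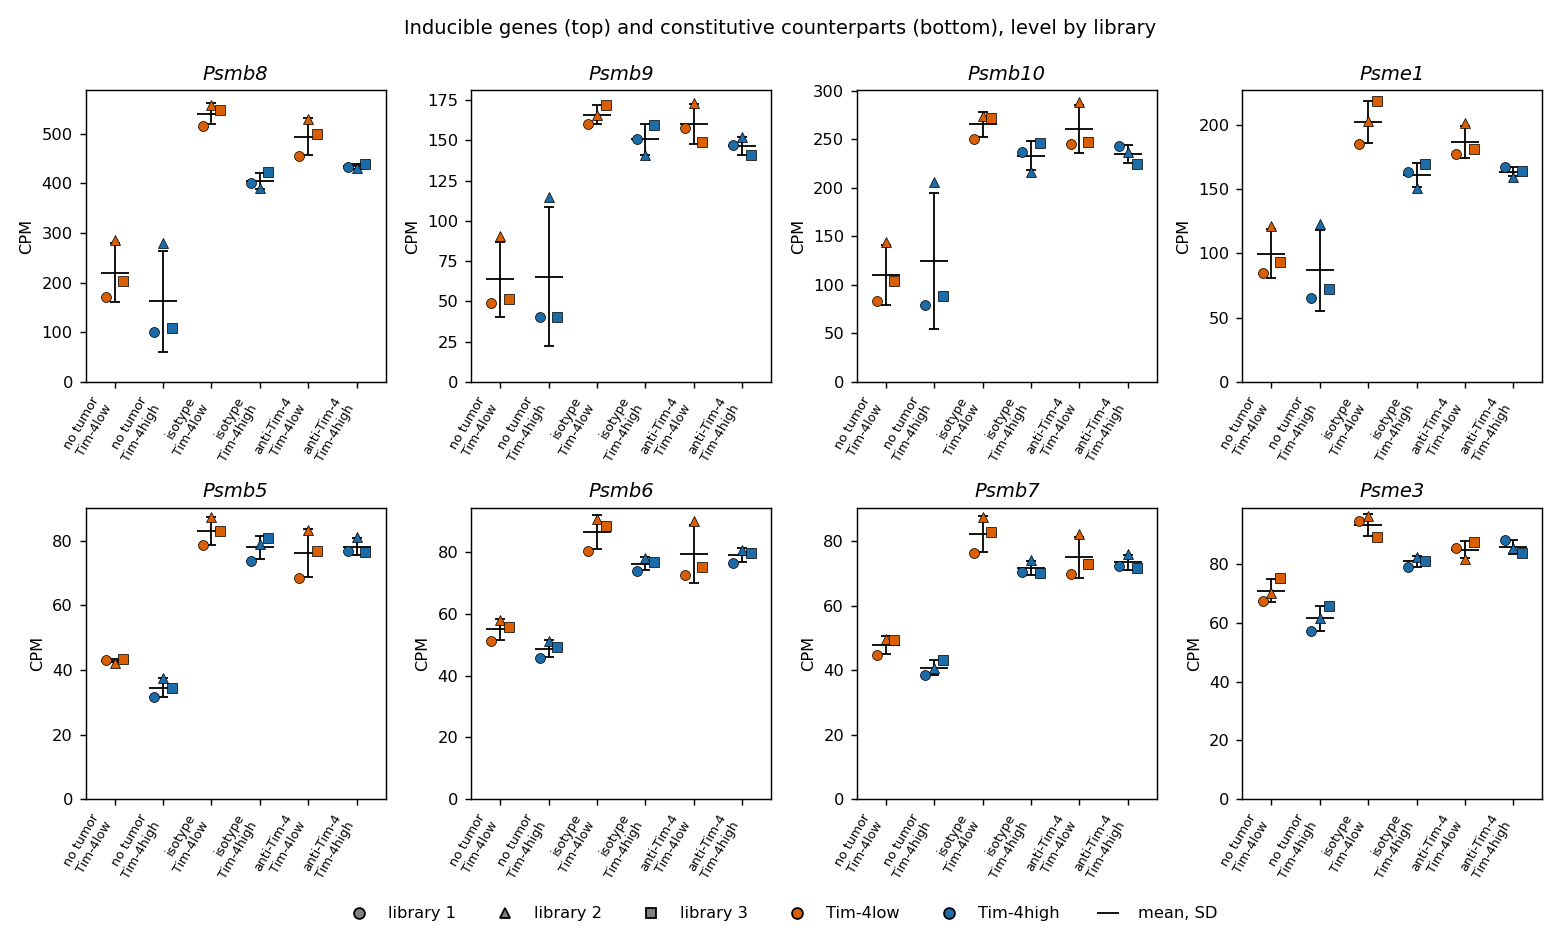
Level in CPM of 4 inducible genes (top row) and 4 constitutive genes (bottom row) in each of the 18 libraries. Symbols give the library number, colour the population, and bars the mean and SD of 3 libraries. In the top row the no-tumor libraries 2 (triangles) lie above libraries 1 and 3, and in the bottom row the no-tumor libraries lie close together.

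The constitutive catalytic subunits rose as well, with little spread between libraries. Psmb5 (ENSMUSG00000022193, chromosome 14, 54614119 to 54618022, minus strand) stood at 43.0, 42.2 and 43.2 CPM in no-tumor Tim-4low and at 31.7, 37.5 and 34.3 CPM in no-tumor Tim-4high libraries. With tumor isotype it held 78.6, 87.4 and 83.0 CPM and 73.9, 79.1 and 80.9 CPM. The no-tumor libraries 2 were not set apart in this gene. Some other genes outside the inducible set, such as Psmb2 and Psma5, were highest in no-tumor library 2 in both populations. Psmb5 rose 2.26-fold in Tim-4high (log2 fold change 1.18 ± 0.08, adjusted p = 1.84e-08) and 1.94-fold in Tim-4low cells (0.95 ± 0.08, adjusted p = 1.54e-07).

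Psmb6 (ENSMUSG00000018286, chromosome 11, 70525367 to 70527858, plus strand) went from 51.3, 57.9 and 55.7 CPM to 80.4, 90.9 and 88.5 CPM in Tim-4low cells, and from 45.8, 51.2 and 49.4 CPM to 74.1, 78.0 and 76.8 CPM in Tim-4high cells. Psmb6 carries the caspase-like site, and it rose by log2 0.65 ± 0.08 in Tim-4high (adjusted p = 8.97e-06) and 0.66 ± 0.08 in Tim-4low cells (adjusted p = 8.49e-06). Psmb7 (ENSMUSG00000026750, chromosome 2, 38588036 to 38644087, minus strand), the trypsin-like subunit, went from 38.4, 40.8 and 43.2 CPM to 70.6, 74.1 and 70.2 CPM in Tim-4high cells. In Tim-4low cells it went from 44.6, 49.6 and 49.2 CPM to 76.3, 87.6 and 83.0 CPM. The log2 fold changes of Psmb7 were 0.81 ± 0.07 (adjusted p = 4.68e-07) and 0.78 ± 0.07 (adjusted p = 7e-07).

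All 4 beta subunits without a cutting site, Psmb1 to Psmb4, rose in both populations, with log2 fold changes of 0.62 to 1.02 in Tim-4high and 0.51 to 1.03 in Tim-4low cells. Of the 7 alpha ring genes all rose in Tim-4high (0.33 to 1.38) and 6 rose in Tim-4low cells (0.20 to 1.38 over the 7). Psma6 had the largest estimate of the 49 genes in Tim-4high cells and, level with Psmb9, in Tim-4low cells. It stood at 65.1, 76.9 and 78.2 CPM without and 183, 202 and 187 CPM with tumor isotype in Tim-4high libraries (log2 fold change 1.38 ± 0.09, adjusted p = 1.18e-08). In Tim-4low libraries it went from 80.4, 87.3 and 88.4 CPM to 217, 229 and 221 CPM (1.38 ± 0.09, adjusted p = 1.29e-08). The nearest tumor and no-tumor libraries of Psma6 were far apart relative to the spread within groups. Psma5 rose by 1.10 ± 0.10 and 1.33 ± 0.10 (adjusted p = 5.24e-07 and 9.79e-08) and Psma1 by 0.94 ± 0.07 and 0.97 ± 0.07 (adjusted p = 7.8e-08 and 6.89e-08), in the same order. Psma7 was the alpha gene that did not pass in Tim-4low cells (0.20 ± 0.10, adjusted p = 0.109).

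In the 19S regulator all 6 ATPase genes and all 11 other subunit genes rose in both populations. The ATPases changed by log2 0.27 to 0.65 in Tim-4high and 0.40 to 0.73 in Tim-4low cells, and the non-ATPases by 0.30 to 1.17 and 0.42 to 0.96. Psmd14 (ENSMUSG00000026914, chromosome 2, 61711694 to 61800376, plus strand), the deubiquitinase of the 19S lid, had the smallest adjusted p of the members in Tim-4high cells. It went from 25.4, 27.8 and 27.2 CPM to 53.5, 57.5 and 55.4 CPM there (1.05 ± 0.06, adjusted p = 9.45e-09). In Tim-4low cells it went from 43.9, 40.6 and 43.4 CPM to 73.8, 73.6 and 70.1 CPM (0.77 ± 0.06, adjusted p = 1.91e-07). Every Tim-4low library of Psmd14 exceeded the Tim-4high libraries of its condition, both without a tumor and with tumor isotype. Psmd8, a structural lid subunit, rose by 1.17 ± 0.08 in Tim-4high (adjusted p = 3.48e-08) and 0.96 ± 0.08 in Tim-4low cells (adjusted p = 2.48e-07).

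Psme3, which encodes the PA28 gamma activator of the nucleus, stood at 57.2, 61.8 and 65.8 CPM without and 79.2, 82.6 and 81.1 CPM with tumor isotype in Tim-4high cells (log2 fold change 0.39 ± 0.06, adjusted p = 7.99e-05). In Tim-4low cells it went from 67.4, 70.4 and 75.2 CPM to 94.8, 96.5 and 89.3 CPM (0.40 ± 0.06, adjusted p = 7.96e-05). Psme4, the PA200 activator, rose by 0.45 ± 0.09 and 0.47 ± 0.09 (adjusted p = 0.000493 and 0.000367). Psmf1, which encodes the inhibitor PI31, did not pass in either population (-0.11 ± 0.08, adjusted p = 0.242, and -0.09 ± 0.08, adjusted p = 0.387). The 19S chaperone genes Psmd5, Psmd9 and Psmd10 rose in Tim-4high cells, as did Psmd9 and Psmd10 in Tim-4low cells. The core chaperone genes Psmg1 and Psmg4 rose in both populations and Psmg2 in Tim-4low cells alone, by 0.31 ± 0.12 (adjusted p = 0.0463). The Psmg2 call was lost with library totals, without the low-count filter, in a fit of the compared groups alone and with the replicate block. It was also lost without both no-tumor libraries 2 and without both isotype libraries 3. The call of Psmd5 in Tim-4high cells (0.24 ± 0.10, adjusted p = 0.0485) was lost in all these settings, with RLE scaling factors and with DESeq2. In Tim-4high cells the calls of Psma3, Psma7, Psmc2 and Psmg4 were lost with library totals and in a fit of the compared groups alone. Those of Psmc5 and Psmd11 were lost with library totals and kept in that fit. Psmg3 and the testis alpha form Psma8 passed in neither population, and Psma8 stood at 1.01 to 2.597 CPM. Psmc3ip, named for binding Psmc3, reached at most 2.35 CPM and rose in both populations (0.78 ± 0.25 and 0.69 ± 0.25), calls lost in both in fits of the compared groups alone and in several omissions of 1 library, and in Tim-4low cells with library totals.

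**Figure D3:**
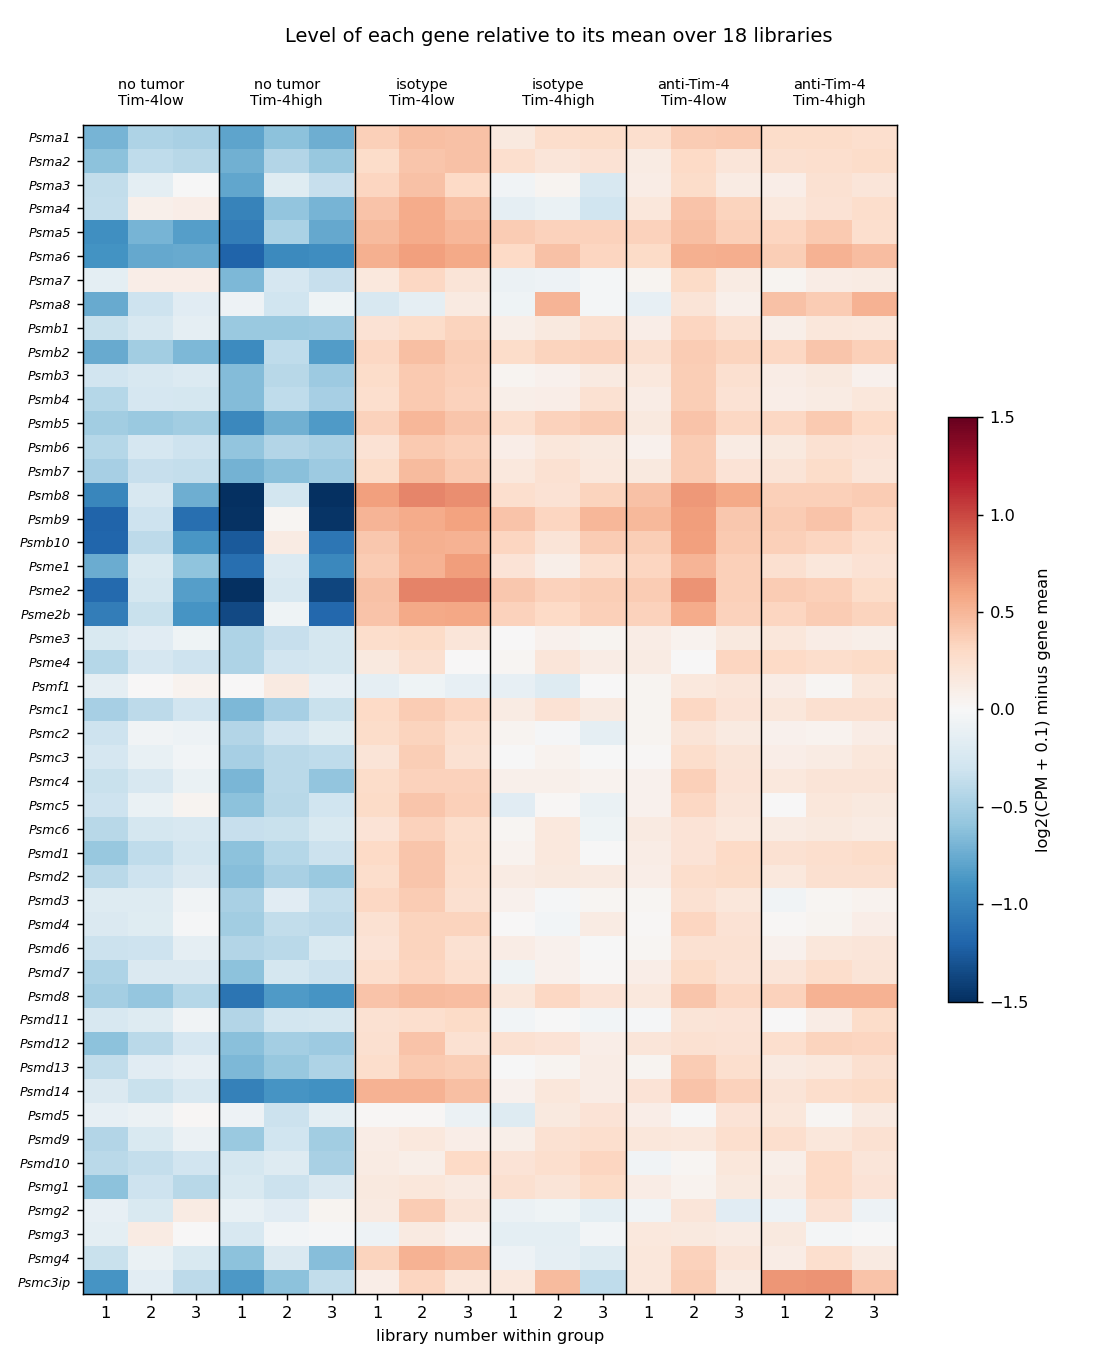
Level of each of the 49 genes in each of the 18 libraries as log2(CPM + 0.1) minus the gene's mean over libraries, genes grouped by role, libraries by group. Colour runs from -1.5 (blue) to 1.5 (red). No-tumor columns are mostly blue and tumor columns mostly red, and in the no-tumor columns 2 the inducible genes are paler than in columns 1 and 3.

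The tumor effect did not pass a test of difference between populations for any of the 49 genes. edgeR's quasi-likelihood test of the interaction called 0 members and 3.53% of all genes (1.32% higher and 2.21% lower), with 3 members at an unadjusted p under 0.05 and 0 called by DESeq2. The smallest adjusted p was that of Psmd14, whose rise was smaller in Tim-4low cells (difference of log2 fold changes -0.28 ± 0.09, adjusted p = 0.0977). For Psmb8 the difference was -0.02 with a 95% interval of -0.87 to 0.83, and for Psmb10 it was 0.36 with an interval of -0.44 to 1.17. Without the no-tumor Tim-4high library 2 they were -0.66 (adjusted p = 0.0949) and -0.20 (adjusted p = 0.727), so the direction for Psmb10 turned. Without both no-tumor libraries 2 the differences were -0.43 for Psmb8, -0.17 for Psmb9, 0.04 for Psmb10, -0.04 for Psme1 and -0.23 for Psme2, against 0.18 for Psmb9, 0.13 for Psme1 and 0.04 for Psme2 with all libraries, and none passed. For Psmb5 it was -0.22 with a narrower interval of -0.45 to 0.01.

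Other genes of the pathway were counted in lists chosen with results of these data known. Of 11 genes for MHC class I peptide supply and loading, 10 rose in Tim-4high and 11 in Tim-4low cells, with median log2 fold changes of 0.97 and 0.91. Erap1, which trims peptides, rose by 0.97 and 0.88, the MHC light chain gene B2m by 1.06 and 1.00, and the chaperone Pdia3 by 0.79 and 0.67. Of 11 genes of interferon-gamma signalling 3 rose and 1 fell in Tim-4high cells, and 7 rose and 1 fell in Tim-4low cells. Socs3, a feedback inhibitor of cytokine signalling, rose by 0.82 and 1.45. Of 7 genes listed for the NRF1 pathway, which raises proteasome genes when proteasomes are impaired, Vcp and Sel1l rose in Tim-4high cells. In Tim-4low cells Vcp, Sel1l and Nfe2l2 rose and Syvn1 fell. Nfe2l2 encodes NRF2, a factor other than NRF1, and is not a gene of that pathway. The gene of NRF1 itself, Nfe2l1, stood at 0.08 (adjusted p = 0.302) and -0.03 (adjusted p = 0.74). Of 12 tested genes for other proteasome parts and regulators, 8 rose and 1 fell in Tim-4high and 9 rose in Tim-4low cells, among them the deubiquitinase genes Uchl5 (0.65 and 0.70) and Usp14 (0.62 and 0.46). Of 5 ubiquitin genes 3 and 2 rose. In Tim-4high cells the interferon-gamma and NRF1 counts are shares near the 27.3% of all genes that rose.

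Of the 11 genes of interferon-gamma signalling, 5 (Irf1, Irf8, Nlrc5, Socs1 and Ciita) were highest in library 2 among the no-tumor libraries of both populations. The others, such as Socs3, were not. The share of all genes tested with this pattern was not counted, so 5 of 11 is a description only. Irf1, an interferon regulatory factor gene, stood at 79.0, 300.2 and 119 CPM in no-tumor Tim-4low cells and at 90.9, 470.3 and 125 CPM in no-tumor Tim-4high libraries 1 to 3. Tap1, the peptide transporter gene beside Psmb9, held 235 and 270.0 CPM in the no-tumor libraries 2 of Tim-4low and Tim-4high cells. Library 2 was the highest no-tumor library for Tap1 too, a gene chosen after its values were seen. Ifng itself stood at 0.219 CPM or less in every no-tumor library and reached 2.11 and 2.00 CPM in the isotype libraries 3, which also held the most T and NK cell marker counts. The part of these cells, of Ifng and of the other cell types whose markers differed in the levels of the proteasome genes was not tested. Without both isotype libraries 3, 44 members rose with tumor in Tim-4high and 43 in Tim-4low cells, and without both no-tumor libraries 2 the counts were 44 and 43.

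The ratio of each inducible subunit to the subunit it replaces does not depend on library scaling. Per transcript length, Psmb8 was at 2.97, 5.06 and 3.52 times Psmb5 in no-tumor Tim-4low libraries and at 2.35, 5.57 and 2.36 times in no-tumor Tim-4high ones. With tumor isotype it was at 4.91, 4.77 and 4.94 times in Tim-4low and 4.05, 3.70 and 3.91 times in Tim-4high cells. The tumor groups were thus narrow, and no-tumor library 2 lay above their range in both populations. The ratio was 1.24-fold higher with tumor isotype in Tim-4high and 1.30-fold higher in Tim-4low cells (exact two-sided permutation test of 3 against 3 libraries, p = 0.40 in both, where 0.10 is the smallest p possible). Leaving out the no-tumor library 2 gave 1.65-fold and 1.51-fold.

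Psmb9 was at 0.522, 0.860 and 0.508 times Psmb6 in no-tumor Tim-4low and at 0.482, 1.23 and 0.451 times in no-tumor Tim-4high libraries. It was at 1.10, 1.00 and 1.07 times and at 1.12, 0.991 and 1.14 times with tumor isotype. The groups overlapped in Tim-4high and not in Tim-4low cells. The ratio was 1.72-fold higher with tumor isotype in Tim-4low (exact permutation p = 0.10) and 1.68-fold in Tim-4high cells (exact permutation p = 0.40), and 2.04-fold and 2.32-fold without the no-tumor library 2. Psmb10 over Psmb7 was 1.43-fold higher in Tim-4low (exact permutation p = 0.10) and 1.17-fold in Tim-4high cells (exact permutation p = 0.80), and without the no-tumor library 2 1.63-fold and 1.58-fold. Psme1 over Psme3, which are not partners in 1 complex, was 1.55-fold higher in Tim-4low and 1.47-fold in Tim-4high cells (exact permutation p = 0.10 and 0.20). Psme2 over Psme3 was 2.00-fold and 2.08-fold higher (exact permutation p = 0.10 in both). Without the no-tumor library 2 they were 1.73-fold and 1.78-fold, and 2.38-fold and 2.77-fold. Over the 20 ratio tests between conditions no adjusted p was under 0.29, the smallest that these exact tests gave.

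**Figure D4:**
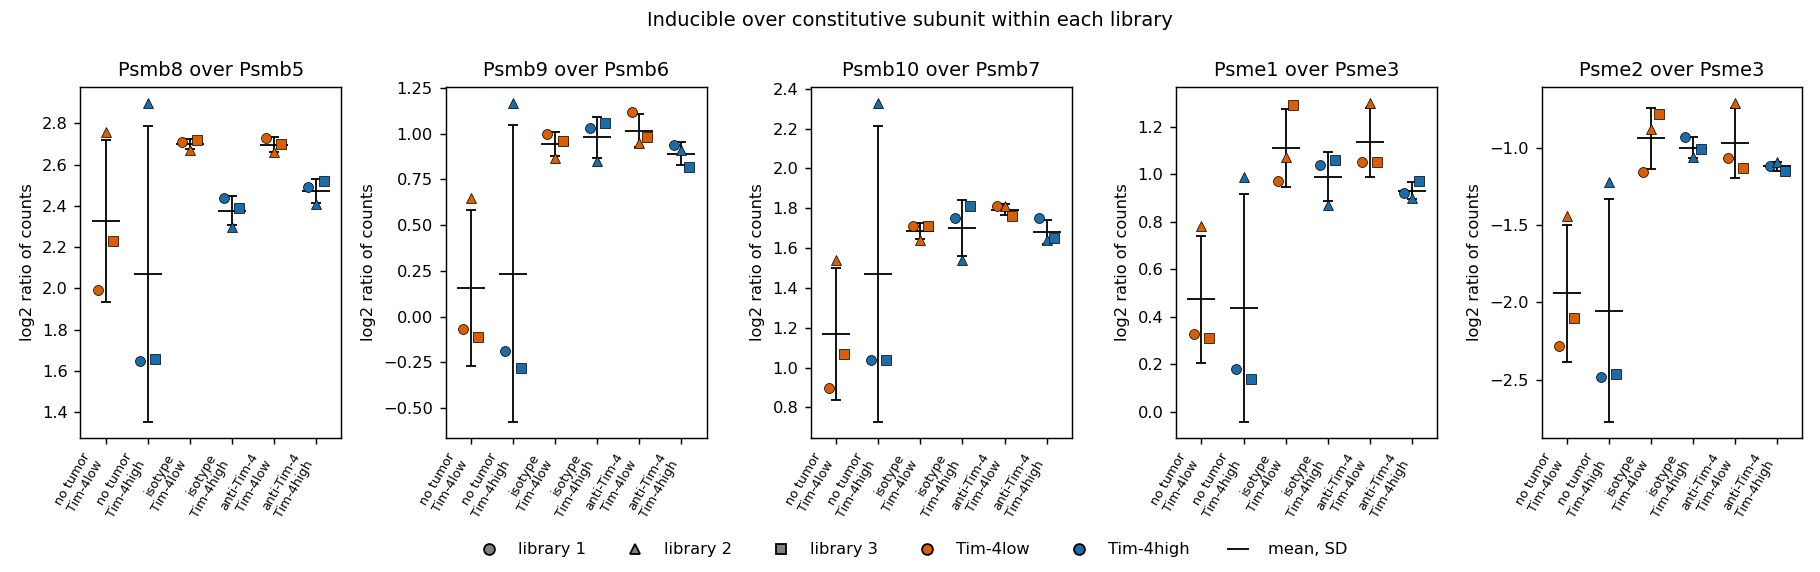
Log2 ratio of counts of an inducible to a constitutive gene within each of the 18 libraries, for 5 pairs of genes. Symbols give the library number, colour the population, bars the mean and SD of 3 libraries. Tumor groups are narrow, and in every panel the no-tumor libraries 2 (triangles) lie above the no-tumor libraries 1 and 3.

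Set against each other per length, Psmb8 was the member with the highest mean level in all groups but 1. In isotype Tim-4low libraries it stood at 450 CPM per kilobase, followed by Psme2b at 329, Psmb10 and Psma6 both at 218 and Psme1 at 185 CPM per kilobase. The level of Psme2b carries the uncertainty about its reads given above. In no-tumor Tim-4high libraries Psme2b stood at 136, Psmb8 at 135, Psma7 at 118 and Psmb10 at 102 CPM per kilobase, where the spread over libraries exceeds the gaps. The constitutive Psmb5, Psmb6 and Psmb7 were at 92.4, 109 and 67.9 CPM per kilobase in isotype Tim-4low libraries and at 38.4, 61.6 and 33.7 in no-tumor Tim-4high ones. Alpha ring genes, whose products enter the ring in equal numbers, ranged in isotype Tim-4low libraries from 23.4 (Psma3) to 218 (Psma6) CPM per kilobase. Lengths are means over annotated transcripts weighted by the deposited estimated transcript counts summed over all 18 libraries, so these levels are approximate.

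Between populations, a part of the constitutive proteasome genes was higher in Tim-4low cells, by small amounts. Without a tumor 15 of 49 were higher in Tim-4low cells and none lower, where 12.8% of all genes were higher and 11.8% lower, 24.6% in all. With tumor and isotype 18 were higher and none lower, where 11.3% of all genes were higher and 12.9% lower, 24.1% in all. The median log2 fold change of the 49 genes was 0.17 and 0.20, beside 0.02 and 0.01 over all genes. None of the 5 inducible genes passed in either condition. In no-tumor cells these calls covered 2 of the 7 alpha ring genes, 3 of the 6 ATPases and 5 of the 11 non-ATPases, and with isotype 3, 5 and 7.

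Psma4, an alpha ring subunit, held 77.0, 104 and 106 CPM in no-tumor Tim-4low libraries and 49.2, 65.5 and 61.1 CPM in no-tumor Tim-4high libraries. With isotype it stood at 133, 145 and 135 CPM against 89.9, 92.0 and 80.5 CPM. The groups did not overlap in either condition. Psma4 was 1.63-fold higher without a tumor (log2 fold change 0.71 ± 0.12, adjusted p = 0.000513) and 1.57-fold higher with isotype (0.65 ± 0.12, adjusted p = 0.00118). Psmd14, with its values above, was 1.59-fold higher without a tumor (0.67 ± 0.06, adjusted p = 3.1e-06) and 1.31-fold higher with isotype (0.39 ± 0.06, adjusted p = 0.000508). Both genes passed with each single library of the compared groups left out. Without a tumor, Psmd8 (0.44 ± 0.08, adjusted p = 0.000973) and Psmb1 (0.32 ± 0.07, adjusted p = 0.00281) followed. With isotype the next were Psmg4, a chaperone of the core (0.58 ± 0.11, adjusted p = 0.00138), and the ATPase gene Psmc5 (0.44 ± 0.10, adjusted p = 0.00445).

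Psmb5, Psmb7 and Psme3 were among the genes higher in no-tumor Tim-4low cells, by 0.31 ± 0.08 (adjusted p = 0.00698), 0.23 ± 0.07 (adjusted p = 0.0331) and 0.21 ± 0.06 (adjusted p = 0.0233). With isotype Psme3 passed (0.21 ± 0.06, adjusted p = 0.0224), and the calls of Psmb7 and Psme3 were each lost in several omissions of a single library. Among those that missed with isotype were Psmb5 (0.09 ± 0.08, adjusted p = 0.428), Psmb6 (0.18 ± 0.08, adjusted p = 0.112) and Psmb7 (0.20 ± 0.07, adjusted p = 0.0587). Psmb6 also missed without a tumor (0.17 ± 0.08, adjusted p = 0.137). The number of calls was unsteady: it lay between 7 and 23 without a tumor and between 5 and 14 with isotype when 1 library was left out, the lowest without the no-tumor Tim-4low library 3 and the isotype Tim-4low library 2. Without both isotype libraries 3 the isotype count was 6, and a fit of the no-tumor groups alone called 4, without Psmb5, Psmb7 and Psme3. In the authors' deposited table for no-tumor cells, 8 members had an FDR under 0.05, all higher in Tim-4low cells. The sums of monocyte markers, and without a tumor of dendritic cell markers, were also higher in Tim-4low libraries, as given above. In no-tumor Tim-4low libraries these sums were mostly Ccr2 and Cd209a, at means of 1468.5 and 87.8 CPM. Their means in no-tumor Tim-4high libraries were 46.6 and 17.5 CPM. Vcan and Xcr1, from the same lists, had lower means in no-tumor Tim-4low than Tim-4high cells. The part of these cell types in the differences was not tested.

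**Figure D5:**
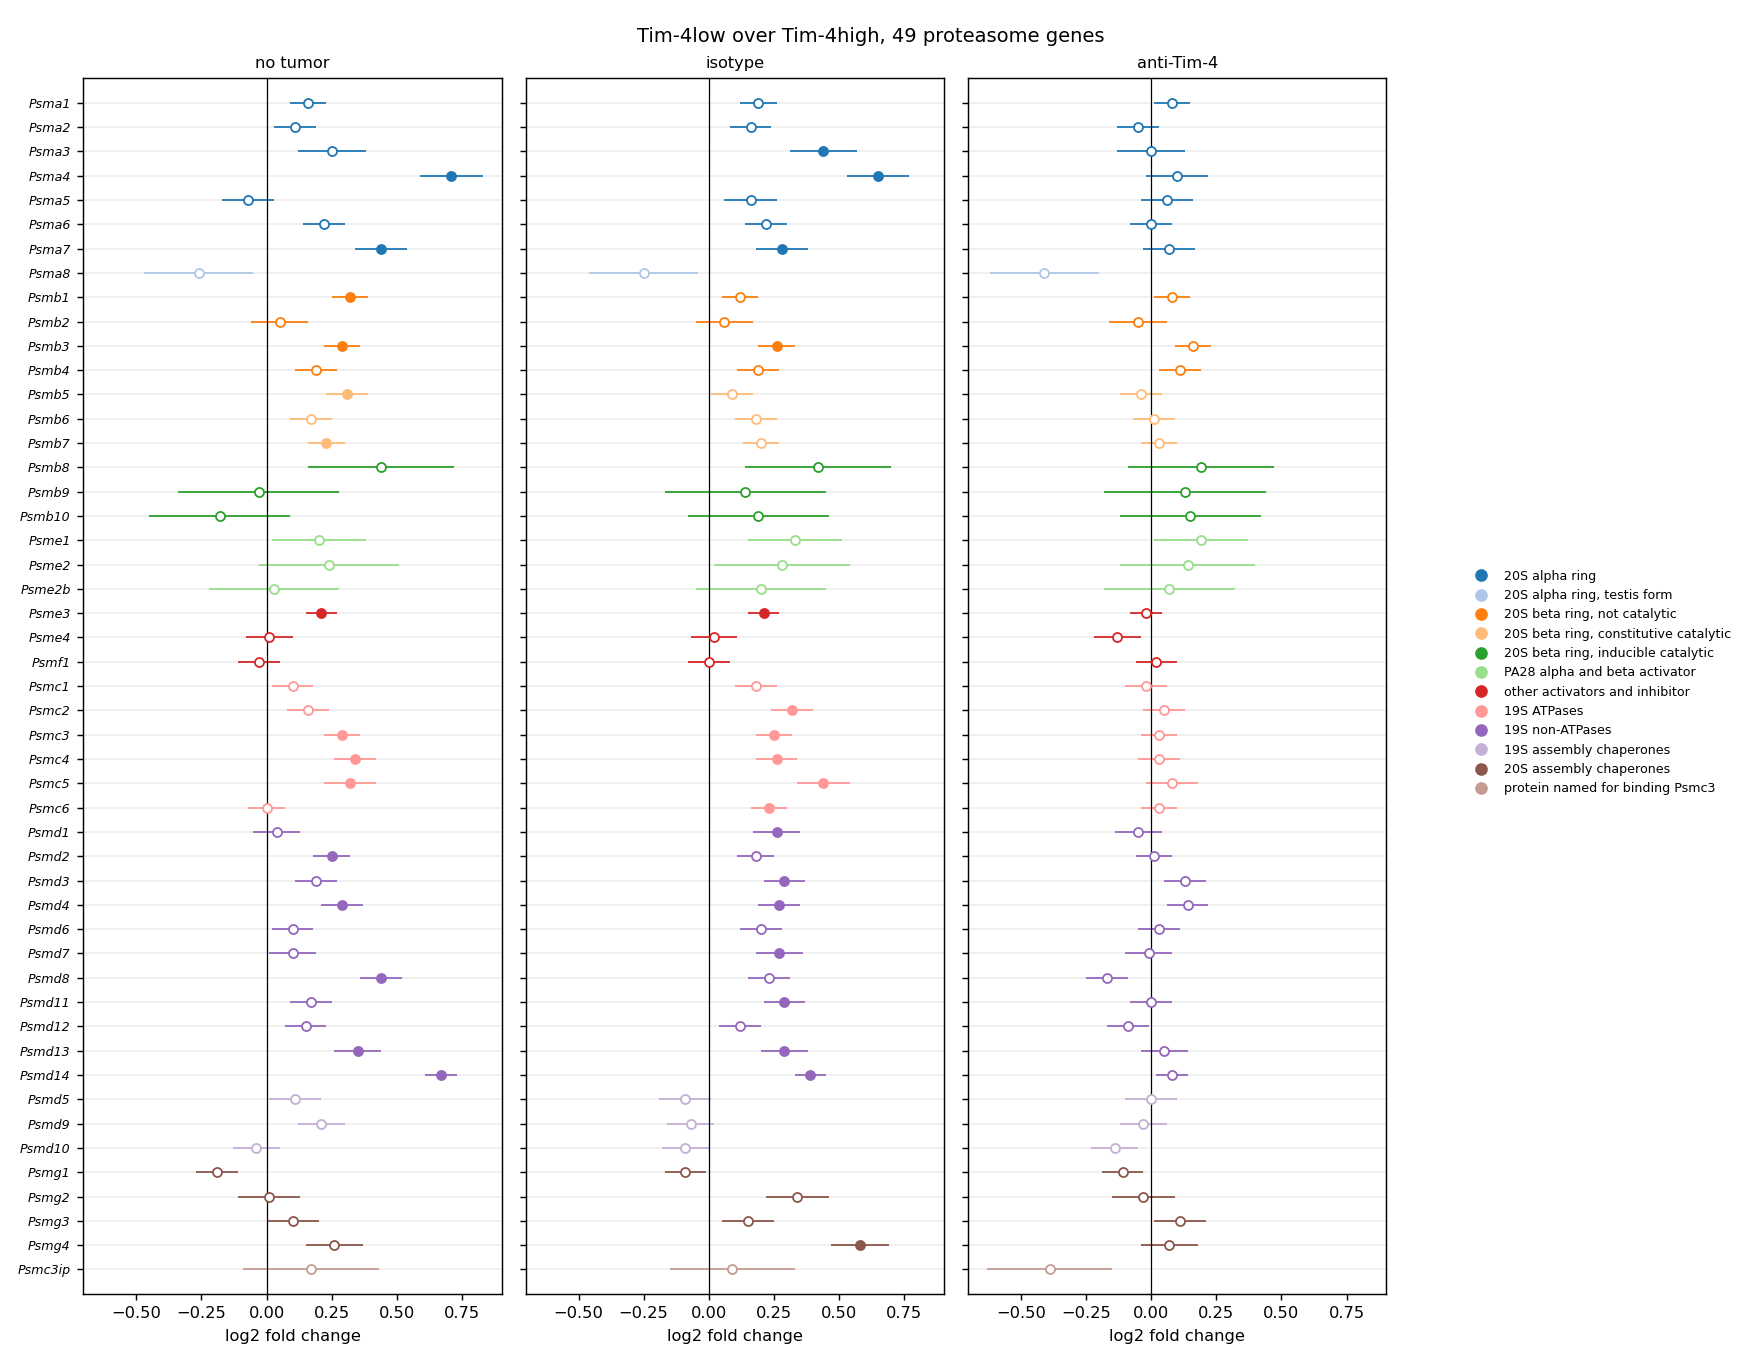
Log2 fold change of Tim-4low over Tim-4high for the 49 proteasome genes, grouped by role, in the 3 conditions (no tumor, isotype, anti-Tim-4). Points are edgeR estimates, bars standard errors, and filled points passed an adjusted p of 0.05. Filled points are present in the first 2 panels (15 and 18 genes) and absent from the panel of anti-Tim-4.

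Among the inducible genes, Psmb8 was 1.36-fold higher in no-tumor Tim-4low than Tim-4high cells (log2 fold change 0.44 ± 0.28, adjusted p = 0.299) and 1.34-fold higher with isotype (0.42 ± 0.28, adjusted p = 0.318), which did not pass. The isotype libraries did not overlap, at 516 to 557 against 390 to 422 CPM. With libraries paired by their number within a condition, Psmb8 passed without a tumor (0.57, adjusted p = 0.00471) and with isotype (0.42, adjusted p = 0.0234). In the same block fit Psme1 passed as well (0.24, adjusted p = 0.045, and 0.32, adjusted p = 0.00954), as did Psmb6 in both conditions (0.17, adjusted p = 0.0396, and 0.18, adjusted p = 0.0291) and Psmb7 with isotype (0.20, adjusted p = 0.0136). The counts rose to 24 and 30 of the 49 genes in that paired fit. Without both no-tumor libraries 2 the unpaired fit gave Psmb8 0.85 (adjusted p = 5.7e-05), Psme2 0.50 (adjusted p = 0.0247), Psme1 0.37 (adjusted p = 0.016) and Psmb9 0.31 (adjusted p = 0.0187) in no-tumor cells. With all libraries, Psmb9 was at -0.03 ± 0.31 (adjusted p = 0.957), Psmb10 at -0.18 ± 0.27 (adjusted p = 0.697), Psme1 at 0.20 ± 0.18 (adjusted p = 0.478) and Psme2 at 0.24 ± 0.27 (adjusted p = 0.591). With isotype the log2 fold changes of these 4 genes were 0.14, 0.19, 0.33 and 0.28, none of which passed.

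Over all 9 pairs of Tim-4low and Tim-4high libraries, Psmb8 over Psmb5 was higher in Tim-4low by log2 0.27 ± 0.19 (SD, 9 pairs) and was higher in 8 of 9 pairs (exact two-sided sign-flip permutation test, p = 0.00781, adjusted p = 0.0391 over the 5 ratios). The exception was the pair of no-tumor libraries 2, at -0.14. The adjusted exact p was 0.483 when labels were permuted within condition without pairs, and 0.156 to 0.312 with 1 condition left out. The call thus rests on reading library numbers as pairs, which the labels do not state. The other ratios did not pass: Psmb9 over Psmb6 differed by 0.00 ± 0.22 (exact permutation p = 0.977), Psmb10 over Psmb7 by -0.07 ± 0.29 (exact permutation p = 0.75), Psme1 over Psme3 by 0.12 ± 0.17 (exact permutation p = 0.0781) and Psme2 over Psme3 by 0.11 ± 0.22 (exact permutation p = 0.191). In isotype cells the per-length ratio of Psmb8 to Psmb5 was 4.88 ± 0.0893 (SD, n = 3) in Tim-4low and 3.89 ± 0.18 in Tim-4high cells, with no overlap. With anti-Tim-4 it was 4.86 ± 0.119 and 4.16 ± 0.171, again without overlap.

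With anti-Tim-4 the 2 populations were close in proteasome gene levels. edgeR's quasi-likelihood test called 0 of 49 members between Tim-4low and Tim-4high cells, where 1.39% of all genes were called (0.542% higher and 0.849% lower), with 1 member at an unadjusted p under 0.05 and 0 called by DESeq2. Psmb8 stood at 455, 528 and 499 CPM in Tim-4low and at 432, 430.2 and 439 CPM in Tim-4high libraries (log2 fold change 0.19, 95% interval -0.41 to 0.79). Psma4 held 111, 133 and 124 CPM against 110.4, 115 and 119 CPM (0.10 ± 0.12, adjusted p = 0.784), and Psmd14 59.2, 69.1 and 65.3 CPM against 58.7, 61.3 and 62.7 CPM (0.08 ± 0.06, adjusted p = 0.616). The groups of these last 2 genes overlapped.

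Between antibodies, which are compared through the same isotype libraries as the tumor effect, no member passed in either population. In Tim-4high cells edgeR's quasi-likelihood test called 0 of 49, where 7.97% of all genes were called (4.3% higher and 3.67% lower), with 7 members at an unadjusted p under 0.05 and 2 called by DESeq2. The authors' deposited table for these 6 libraries held 3 members with an FDR under 0.05, Psma4, Psmd7 and Psmd8, each higher with anti-Tim-4. Here Psma4 stood at 0.39 ± 0.12 (adjusted p = 0.0564), Psmd8 at 0.24 ± 0.08 (adjusted p = 0.0794) and Psmd7 at 0.21 ± 0.09 (adjusted p = 0.148). In Tim-4low cells 0 of 49 were called, where 0.325% of all genes were (0.223% higher and 0.102% lower), with 4 members at an unadjusted p under 0.05 and 0 called by DESeq2. The median log2 fold change over the 49 genes was 0.09 in Tim-4high and -0.11 in Tim-4low cells.

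The inducible genes were near their isotype levels. Psmb8 differed by 0.10 (95% interval -0.50 to 0.70) in Tim-4high and by -0.13 (-0.73 to 0.47) in Tim-4low cells. Psmb9 held 158, 174 and 149 CPM in anti-Tim-4 Tim-4low and 147, 152 and 141 CPM in Tim-4high libraries, a difference from isotype of -0.05 (-0.71 to 0.60) and -0.04 (-0.70 to 0.62). Psmb10 held 245, 289 and 248 CPM and 243, 237 and 225 CPM, a difference of -0.03 (-0.59 to 0.54) and 0.01 (-0.55 to 0.58). For the constitutive Psmb5 they were narrower, -0.16 to 0.17 in Tim-4high and -0.28 to 0.04 in Tim-4low cells. Psme1 differed by 0.02 and -0.12 and Psme2 by -0.04 and -0.17, with adjusted p from 0.826 to 0.956. Psmb6, Psmb7 and Psme3 differed by 0.05, 0.04 and 0.09 in Tim-4high and by -0.13, -0.13 and -0.14 in Tim-4low cells, with adjusted p from 0.374 to 0.801.

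The antibody difference between populations was below 0 for most members, with no call. The interaction, Tim-4low minus Tim-4high, had a median of -0.17 on the log2 scale, beside -0.01 over all genes, and was above 0 for 3 of the 49. edgeR's quasi-likelihood test called 0 members and 2.93% of all genes (1.67% higher and 1.26% lower), with 13 members at an unadjusted p under 0.05. Psmd8 (-0.39 ± 0.11, adjusted p = 0.0679), Psmd14 (-0.30 ± 0.09, adjusted p = 0.0707), Psmg4 (-0.51 ± 0.15, adjusted p = 0.078) and Psma4 (-0.56 ± 0.17, adjusted p = 0.0799) were nearest to the threshold. DESeq2 called 4 members lower, and the fit with libraries paired by number within condition called 10 lower. The 5 inducible genes ranged from -0.23 to -0.01 in this interaction, with intervals that all included 0.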

How the data were processed

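RNA of sorted macrophages was analysed in 18 libraries, 6 groups of 3. The authors deposited estimated counts per gene without normalization. STAR, DESeq2 and the build mm10 are listed, per the submitters' processing notes. Tool versions, annotation and use of strand were not given in the sources used here. The authors' deposited comparison tables hold p-values, FDR values and signed linear fold values for 2 comparisons: the populations of no-tumor mice, with Tim-4high as numerator (turned here), and the antibodies in Tim-4high cells.

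Estimated counts were rounded. filterByExpr kept 16609 genes and left out 6902. edgeR 4.0.16 (R 4.3.3) fitted all 6 groups in 1 model and used TMM factors (residual degrees of freedom 12, common dispersion 0.0323). The threshold of its quasi-likelihood test was 0.05 after Benjamini-Hochberg adjustment, and interactions are Tim-4low minus Tim-4high differences. Ratios used counts plus 0.5. All 49 genes' coordinates matched GENCODE M21. Alternatives were RLE factors, library totals, no filter, DESeq2 1.42.0, the compared groups alone, a replicate block and leaving out each library. The block was library number within condition for comparisons of populations and for interactions. For tumor and antibody comparisons it was library number across conditions, and the labels do not say that such libraries are linked. Added after seeing the data were leaving out both no-tumor libraries 2 or both isotype libraries 3 and summing Psme2 and Psme2b. The methods were tested on simulated data.

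The members and lists were chosen with earlier results of these data known. The naming rule took the 5 inducible genes, Psmb5, Psmb6, Psmb7 and Psme3 in every comparison, up to 4 called members each way with the smallest adjusted p, and up to 3 genes of each other list. Some items are not reported here. Other genes named, among them Irf1, Tap1 and members that missed the threshold, were chosen after their values were seen. Whether library numbers pair the samples was checked by correlating deviations from the group mean. Correlations were 0.11 to 0.44 for the 9 pairs of a Tim-4low and a Tim-4high library that share condition and number, -0.37 to 0.18 for pairs that share the condition only, and -0.28 to 0.16 for pairs that share population and number only. All 9 correlations of pairs that share condition and number were positive. Their lowest value, 0.11, lay below 0.18, the highest for pairs that share the condition only, so these ranges overlapped. Deviations of the libraries of a group from their own mean offset each other, so these correlations are not independent. The check therefore cannot settle whether numbers pair libraries inside a condition, and the labels do not say what they mark. Results with libraries paired by number rest on that assumption.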

Additional observations from a re-analysis of the deposited data

How the results depend on the processing

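Counts of proteasome genes that rose with tumor and isotype moved by less than 1.5 times under every alternative run, and with 1 library left out they lay between 39 and 44 in Tim-4high and between 42 and 44 in Tim-4low cells (45 and 44 with all libraries). Other counts moved. Between populations, members called without a tumor (15) and with isotype (18) became 26 and 34 with library totals, which shift the median of all genes by up to 0.15, 4 and 29 in fits of the compared groups, and 24 and 30 with the replicate block. One library left out gave 7 to 23 and 5 to 14, and without both isotype libraries 3 the isotype count was 6. For the antibodies in Tim-4high cells the members called (0) became 5 with library totals, 2 with DESeq2 and 4 with the compared groups. They became 3 with the block on library number across conditions. For the antibody interaction (0) they became 4, 4 and 4 in that order, and 10 with the block on number within condition. Leaving out 1 library gave 0 for both.

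All genes called between antibodies in Tim-4high cells (1324) became 2065 with library totals, 2128 with DESeq2, 2990 with the compared groups, 210 without both isotype libraries 3 and 10 to 1160 with 1 library left out. In Tim-4low cells (54) they became 34 without a filter, 295, 3 and 5 under DESeq2, the compared groups and the omission of both isotype libraries 3, and 2 to 40 with 1 library left out. For the antibody interaction (487) they became 779, 1297 and 976 with library totals, DESeq2 and the compared groups, 2609 with the replicate block, 9 without both isotype libraries 3 and 1 to 1418 with 1 library left out. For the tumor interaction (587) they became 1040 with DESeq2, 1858 with the replicate block, 264 without both isotype libraries 3 and 321 to 889 with 1 library left out. Between populations with anti-Tim-4 (231) they became 529 with DESeq2, 445 with the compared groups, 1182 with the replicate block and 25 to 139 with 1 library left out. Without a tumor (4086) they became 2472 with the compared groups and 2796 to 3888 with 1 library left out, and with isotype (4011) 2625 to 3485. With tumor 1 library left out gave 7627 to 8183 (8548) in Tim-4high and 7061 to 7585 (8273) in Tim-4low cells.

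The Psmb8 over Psmb5 difference between populations (0.27) was 0.27 (adjusted exact p = 0.483) without pairing. It was 0.28, 0.24 and 0.29 (adjusted exact p = 0.156, 0.312 and 0.312) without the no-tumor, isotype and anti-Tim-4 pairs, where 6 pairs remain. With 6 pairs, 0.156 is the lowest adjusted p for a ratio that alone has the smallest p possible. Psmb9 in no-tumor cells lay between -0.39 and 0.66 with 1 library left out. It turned from -0.03 to 0.66 (adjusted p = 0.0228) without the no-tumor Tim-4high library 2 and to 0.31 (adjusted p = 0.0187) without both libraries 2. Among the values of genes chosen by the naming rule, leaving out 1 library ended 14 calls, added 4 and left 671 on their side of the threshold. In 1 further value, that of Psmb9 just given, a call was added with a turned sign. No value that was called with all libraries turned. Of those 671, 42 values, from 19 results, changed sign while called in neither fit. The replicate block ended no call of these genes, and those it added are given above. The cause was not tested.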
